A study of Mus musculus with 18 samples.

Results

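The early response to a histone deacetylase inhibitor was followed in neural precursor cells of the mouse forebrain, 6 h after addition of trichostatin A (TSA). The comparison used 4 of the 18 arrays of the series, 2 from TSA-treated cultures and 2 from controls of the same time, and all probe sets with a mean signal of at least 100 in at least 1 group. Of the 45101 probe sets on the array, 19498 met this condition. They stand for 10589 genes, each represented by its brightest probe set. The cells came from the ganglionic eminences of E15.5 C57BL/6 embryos, had grown as neurospheres for 7 days, and were then dissociated and plated as a monolayer in 1% serum without EGF. TSA was given at 50 nM from 1.5 days after plating, in the presence of bFGF, which was withdrawn only after 2.5 days. The 6 h controls received neither TSA nor BMP2. The other groups of the series were BMP2 at 10 ng/ml for 6 h (2 arrays), and at 24 h 6 controls, 2 BMP2 and 4 TSA arrays.

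Histone deacetylases remove acetyl groups from lysines of histones and of many other proteins. They act mostly as the catalytic subunits of corepressor complexes that transcription factors bring to promoters and enhancers, while acetyltransferases such as p300 and CBP add the groups and bromodomain proteins bind them. TSA is a hydroxamate that chelates the zinc ion in the active site of the zinc-dependent deacetylases, and does not inhibit the NAD-dependent sirtuins. In neural precursors, deacetylase activity is known to be needed for oligodendrocyte differentiation, and its inhibition to slow proliferation.

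Signals were close between the arrays of a group and apart between the groups. Over the tested probe sets, log2 signals of the pair of control arrays correlated at r = 0.984 and those of the pair of TSA arrays at 0.988, against 0.912 to 0.929 between a TSA and a control array. The median absolute difference was 0.13 (log2) between the controls, 0.12 between the TSA arrays and 0.33 between the group means. Both groups had the markers of neural precursors and glia, with Sox2 at 4725 to 6307 on the 4 arrays. Of 17 microglia genes on the array and 8 erythroid genes, all were under 100 on all 4 arrays, as were 12 of 14 endothelial genes (all but Egfl7 and Kdr), 8 of 12 mural cell genes and 11 of 13 meningeal and fibroblast genes (all but Ptgds and Pdgfra). The 13 meningeal and fibroblast genes summed to 3466 and 6984 in the controls and to 1427 and 4064 with TSA, and their part in the results was not tested. These sums include Pdgfra (mean 2695 in the controls and 674 with TSA), which is also in the oligodendrocyte lineage list below. Ptgds (mean 2284 and 1819) did not pass. In a bulk culture, fewer cells of a type and less RNA per cell cannot be told apart.

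TSA changed a large part of the measured transcriptome within 6 h. In a limma fit of all 18 arrays, 4369 probe sets passed a Benjamini-Hochberg adjusted p of 0.05, which is 22.4% of those tested (6707 had an unadjusted p under 0.05). Of these, 2344 probe sets were higher (12%) and 2025 lower (10.4%). Quantile normalization gives every array the same distribution, and on the deposited signals without it 2468 were higher and 1759 lower. In all 4369, both TSA arrays lay beyond both control arrays. This was common with 2 arrays a group. Of all 19498 tested probe sets, called or not, the TSA arrays lay above both controls in 7527 and below both in 7113. The separation therefore adds little to the calls. Counted by gene, 1533 rose (14.5%) and 1250 fell (11.8%), and these shares are the background for the counts of this fit in every gene list below. Of the risen genes, 295 had a control mean under 100 and passed the filter only through another group. Where a list below holds such genes, its share of rises is partly fixed by the filter. The median rise was 0.81 and the median fall -0.88 on the log2 scale, with 711 probe sets up and 776 down by more than 1, and 45 up and 72 down by more than 2. All fold changes here are differences of log2(signal + 32), so that changes of dim genes are understated. Where several probe sets measured 1 gene (4566 genes), no gene was called in both directions, and of the 1516 of these with any call 746 had 2 or more probe sets called. Of 81 other probe sets of 120 of the genes named below, 54 gave the same call as the brightest, 26 had its direction but did not pass, 1 passed where the brightest had not, and 0 were reversed.

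**Figure D1:**
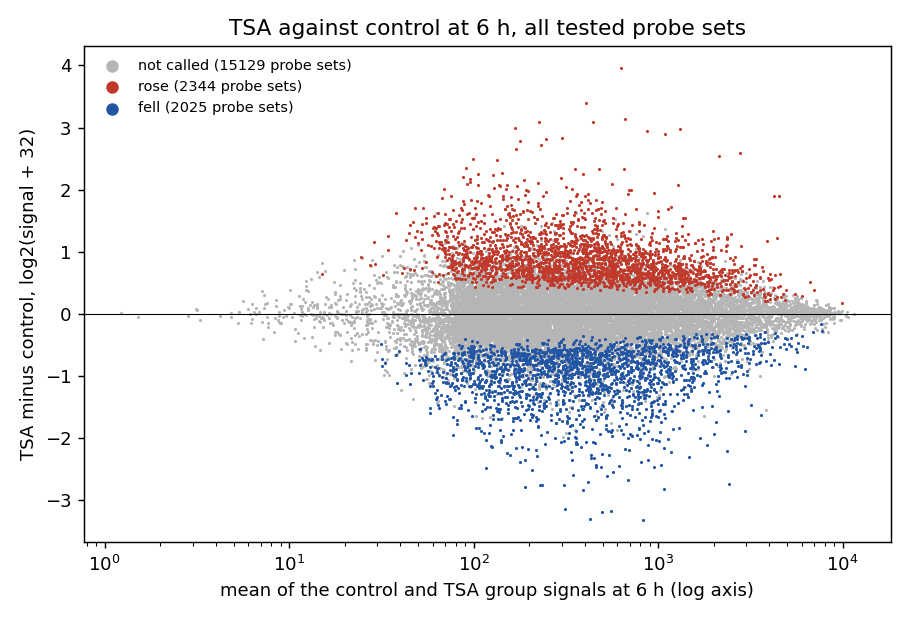
TSA minus control at 6 h (log2, vertical axis) against the mean of both groups' signals (log axis) for the 19498 tested probe sets, 1 point each. The 2344 that rose are red, the 2025 that fell blue and the others grey. Few of the dimmest points are coloured, and both colours spread over the moderate and bright signals.

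The number of calls rests on few arrays. With 2 arrays in each group, the spread was estimated over all 6 groups, and a fit without control replicate 1, control replicate 2, TSA replicate 1 or TSA replicate 2 called 2114, 2170, 2343 and 1898 probe sets, the lone array of its group being taken to vary like the others. A fit of the 6 h arrays alone called 9202 of the 19498 probe sets, 4889 up and 4313 down. List counts given below for fits other than the one as used have the totals of those fits as background. With the replicate number as a block 8000 were called, 4186 up and 3814 down. Deviations of 6 h TSA and control arrays with equal numbers correlated at 0.56, so calls missing from the unpaired fit used here may depend on that choice. Whether separate cultures gave the arrays of a group is not stated in the labels, and p-values therefore cover only the spread of these arrays, possibly a technical one.

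The share of calls in each direction was also read by signal level. To sort probe sets by a level that takes no part in the comparison, the mean of the 6 control arrays of 24 h was used. Of the 2005 probe sets at 50 to 100 there, 14.3% rose and 2.89% fell, while of the 3898 at 1000 and over 8.49% rose and 14.4% fell. The 563 under 50 had 29.5% risen and 0.533% fallen. Probe sets in both bins under 100 had passed the filter only through another group and had little room to fall, so nothing about dim genes is read from them. In the bins from 100 up the share of rises was 8.49% to 12.8% and that of falls 6.03% to 14.4%. At 6 h, 22.4% of the rises started from a control mean under 100, and 23.2% of the falls ended at a TSA mean under 100. The filter itself had its edge at Twistnb, kept with a highest group mean of 100.03, and Zfp770, left out at 99.997.

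**Figure D2:**
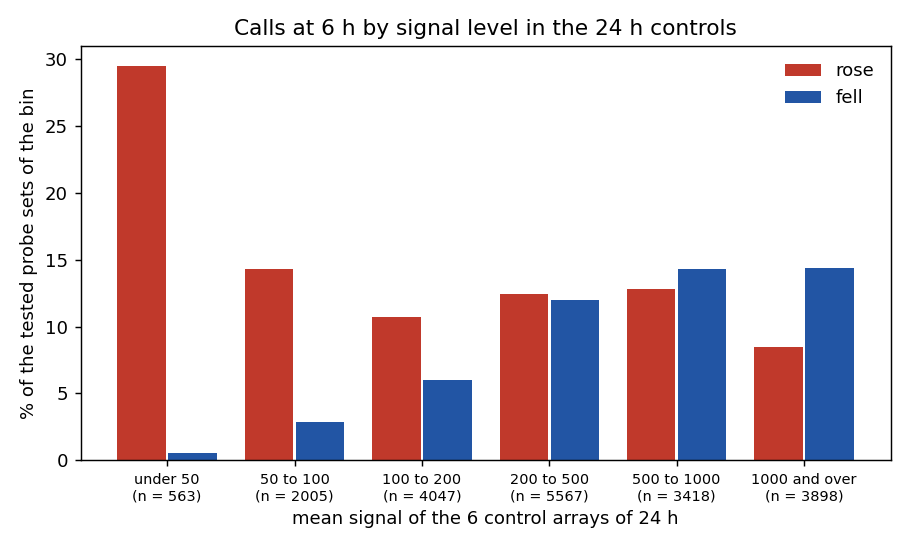
Share of tested probe sets (%) that rose (red) or fell (blue) with TSA at 6 h, in 6 bins of the mean signal of the 24 h controls; n is the number of probe sets in a bin. The share of rises is 29.5% in the dimmest bin and 8.49% in the brightest, and that of falls 0.533% and 14.4%; the 2 bins under 100 hold only probe sets that passed the filter through another group.

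The largest rise of a named gene was that of Efna3 (probe set 1431170_at), which codes for ephrin-A3, a membrane-anchored ligand of Eph receptors. Its signal was 43.7 and 45 in the controls and 697 and 849 with TSA, a difference of 3.39 ± 0.31 (log2, SE; adjusted p = 9.73e-06). It was the only 1 of 12 tested ephrins and Eph receptors to rise, with a median of 0.11 over the list. Epha5 fell on its brightest probe set (adjusted p = 0.0348) and on none of its other tested probe sets. Zcchc12, a transcriptional coactivator of neural tissue, went from 213 and 255 to 2125 and 1780 (2.90 ± 0.31, adjusted p = 2.88e-05). Kdelr3, a receptor that returns chaperones to the endoplasmic reticulum, read 54.3 and 45.1 in the controls and 512 and 594 with TSA (2.84 ± 0.36). Reep6, a protein that shapes the same organelle, read 35.5 and 39.5 against 446 and 468 (2.81 ± 0.35). In all of these the TSA signals were several times the control signals on both arrays.

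Some of the genes that rose most were hardly detected without TSA. Tcfl5, a basic helix-loop-helix factor best known from spermatocytes, had signals of 20.1 and 21.9 in the controls and 362 and 309 with TSA (2.79 ± 0.26, adjusted p = 9.73e-06). Tesc, which codes for the calcium-binding protein tescalcin, went from 21.3 and 25.5 to 312 and 323 (2.66 ± 0.26). Rassf4, of a family of Ras-binding scaffold proteins, went from 9.95 and 5.01 to 213 and 168 (2.49 ± 0.43). Ier3, an early stress response gene, was at 5.89 and 10.3 and then at 192 and 154 (2.35 ± 0.35). Ifnz, of the type I interferon family, read 15.1 and 14.2 against 135 and 369 (2.47 ± 0.33), and its near-identical relatives may share its probes. The remaining members of the 15 largest rises, apart from the heat shock genes and Txnip described below, were Arhgap29, Blvrb and Cnn2 at 2.33 to 2.34, and their controls were between 66.8 and 250.

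**Figure D3:**
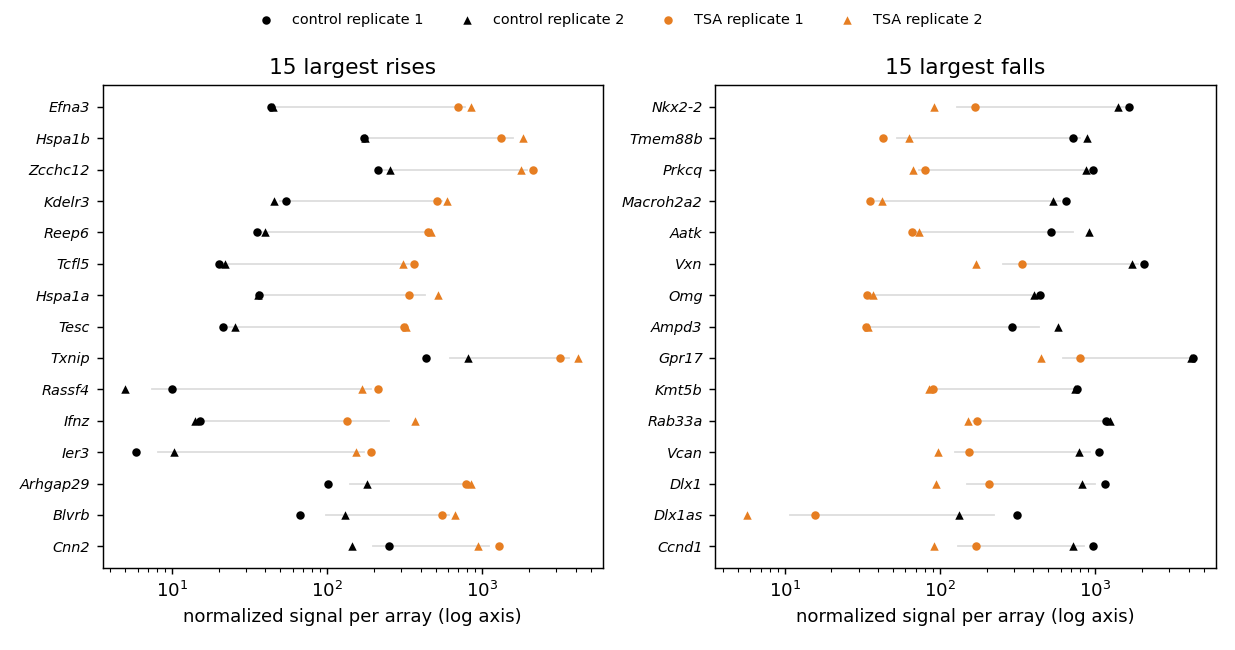
Normalized signal on each of the 4 arrays (log axis) for the 15 genes with the largest rises and the 15 with the largest falls, controls in black, TSA in orange, circles for replicate 1 and triangles for replicate 2. Grey lines join the group means. In each of the 30 genes shown both orange points lie on the same side of both black points. This was a condition of their choice and is no result.

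The promoters of the largest changes are shown because the inhibited enzymes act at promoters, and because genes that move together can be compared by the sequence around their starts. Of the largest changes, the first 4 rises and the first 2 falls with exactly 1 window in the RefSeq table (GRCm38.p6) are printed, each from 250 bases before to 50 after the start, read along the gene. Capitals mark matches, on either strand, of GGGCGG (named the GC box), CCAAT (named after its letters), TATAAA (a form of the TATA box), TGACGTCA (the cAMP response element) and CACGTG (a form of the E-box). The windows of risen genes are Hspa1b at chr17:34959189-34959488 (minus strand), Zcchc12 at chrX:36195654-36195953 (plus strand), Kdelr3 at chr15:79516158-79516457 (plus strand) and Tcfl5 at chr2:180642642-180642941 (minus strand), and those of fallen genes are Nkx2-2 at chr2:147186353-147186652 (minus strand) and Tmem88b at chr4:155785825-155786124 (minus strand).
Hspa1b: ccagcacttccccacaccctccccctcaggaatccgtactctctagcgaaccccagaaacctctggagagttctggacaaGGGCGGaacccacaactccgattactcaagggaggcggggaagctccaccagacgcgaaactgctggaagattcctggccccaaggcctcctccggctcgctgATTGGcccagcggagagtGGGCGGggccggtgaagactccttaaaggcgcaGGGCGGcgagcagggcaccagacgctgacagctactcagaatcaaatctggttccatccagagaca
Zcchc12: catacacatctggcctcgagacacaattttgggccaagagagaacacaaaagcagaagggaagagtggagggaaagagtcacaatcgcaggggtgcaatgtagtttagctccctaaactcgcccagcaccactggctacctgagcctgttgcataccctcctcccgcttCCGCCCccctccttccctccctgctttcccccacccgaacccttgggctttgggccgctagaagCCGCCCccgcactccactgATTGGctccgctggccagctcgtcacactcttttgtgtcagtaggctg
Kdelr3: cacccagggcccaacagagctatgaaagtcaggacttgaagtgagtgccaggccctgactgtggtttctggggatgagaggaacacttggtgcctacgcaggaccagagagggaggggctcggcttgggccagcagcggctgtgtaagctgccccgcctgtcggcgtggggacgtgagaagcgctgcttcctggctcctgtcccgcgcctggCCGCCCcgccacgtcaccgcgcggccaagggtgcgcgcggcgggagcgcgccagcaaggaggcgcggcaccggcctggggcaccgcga
Tcfl5: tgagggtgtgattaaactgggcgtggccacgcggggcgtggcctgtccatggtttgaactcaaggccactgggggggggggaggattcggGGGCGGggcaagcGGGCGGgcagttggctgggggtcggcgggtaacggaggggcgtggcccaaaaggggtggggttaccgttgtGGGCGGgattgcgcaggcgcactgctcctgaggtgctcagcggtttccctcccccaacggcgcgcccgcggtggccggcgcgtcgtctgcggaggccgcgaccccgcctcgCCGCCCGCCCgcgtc
Nkx2-2: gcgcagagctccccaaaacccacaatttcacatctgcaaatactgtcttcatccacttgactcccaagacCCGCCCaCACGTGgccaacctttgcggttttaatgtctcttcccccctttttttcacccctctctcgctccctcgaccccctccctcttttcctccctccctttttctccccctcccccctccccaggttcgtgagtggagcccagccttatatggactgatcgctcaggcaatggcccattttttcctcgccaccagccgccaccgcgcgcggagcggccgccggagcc
Tmem88b: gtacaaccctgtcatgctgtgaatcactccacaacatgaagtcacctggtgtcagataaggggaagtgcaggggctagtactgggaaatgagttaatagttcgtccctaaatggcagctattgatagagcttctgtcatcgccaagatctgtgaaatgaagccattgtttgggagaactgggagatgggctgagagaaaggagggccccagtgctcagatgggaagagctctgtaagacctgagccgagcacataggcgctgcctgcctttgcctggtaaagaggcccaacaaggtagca

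Each of the 4 promoters of risen genes held at least 1 GC box, Tcfl5 had 5 of them in 300 bases with 73% G+C, and Hspa1b and Zcchc12 also had a CCAAT match. The Nkx2-2 window had 1 GC box and 1 E-box, and that of Tmem88b none of the 5 motifs at 51% G+C. Over all tested genes with a window (8654 of 10589), GGGCGG was found in 76.3% of the 1260 windows of risen genes, 61.2% of the 1022 of fallen genes and 67.1% of the 6372 of genes not called, against 35.7% of all 32851 windows. CCAAT was found in 49.5% of the windows of risen genes, 31.2% of those of fallen genes and 38.8% of those not called (37.4% of all). TATAAA ran the other way, at 4.68%, 8.12% and 6.51% (13.6% of all). TGACGTCA was found in 4.13%, 1.66% and 3.66% (1.79% of all), and CACGTG in 11.9%, 8.32% and 10.6% (7.15% of all). The median G+C share was 62.7% for risen and 61.7% for fallen genes. These shares are a description of the letters in 1 window a gene, with no test, and say nothing about bound factors.

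The largest fall of a named gene was that of Nkx2-2 (probe set 1421112_at), a homeodomain factor of oligodendrocyte precursors, from 1658 and 1398 in the controls to 167 and 91.3 with TSA (-3.31 ± 0.41, adjusted p = 8.85e-05). Tmem88b, a membrane protein gene, went from 719 and 880 to 42.8 and 62.8 (-3.30 ± 0.65). Prkcq, which codes for protein kinase C theta, read 965 and 878 against 79.8 and 67.1 (-3.18 ± 0.32). After 6 h these genes were near or under the filter level of 100. Omg, a glycoprotein of oligodendrocytes and neurons, fell from 443 and 405 to 34 and 37.3 (-2.75 ± 0.39). Gpr17, a receptor of oligodendrocyte precursors on the way to differentiation, read 4258 and 4120 against 799 and 448 (-2.74 ± 0.70, adjusted p = 0.0111). Vcan, the proteoglycan versican, fell from 1063 and 786 to 154 and 97.8 (-2.61 ± 0.32). The Gpr17 call ended without either control or without TSA replicate 2 (highest adjusted p = 0.109).

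Dlx1, a homeodomain factor of the ganglionic eminence, went from 1165 and 819 to 207 and 93.8 (-2.54 ± 0.57). Dlx1as, its antisense partner, went from 312 and 133 to 15.7 and 5.74 (-2.49 ± 0.71), and whether the probe sets keep the strands apart was not tested. The Dlx1 call ended without control replicate 1 or TSA replicate 2 (highest adjusted p = 0.0731), that of Dlx1as without these and without TSA replicate 1 (highest 0.172). The other large falls were Vxn, the neuronal factor vexin (2056 and 1732 against 339 and 171, -2.81 ± 0.51), Aatk, a kinase of neurons and oligodendrocytes (-2.83 ± 0.48), Ampd3, AMP deaminase 3 (-2.75 ± 0.48), and Rab33a, a vesicle transport GTPase (-2.68 ± 0.43). The 3 chromatin and cell cycle genes among the 15 largest falls, Macroh2a2, Kmt5b and Ccnd1, are described with their groups.

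Among abundant transcripts the changes were smaller on the log scale but large in signal. Marcks, a substrate of protein kinase C at the membrane, fell from 8301 and 7999 to 4604 and 4215 (-0.88 ± 0.09, adjusted p = 1.78e-05), while 4 other bright probe sets of Marcks gave -0.47 to -0.74. Qk, the RNA-binding protein quaking, fell from 6908 and 7343 to 4098 and 3822 (-0.84 ± 0.06, adjusted p = 2.47e-06). Tns3, the focal adhesion protein tensin 3, fell from 5184 and 5745 to 1766 and 1746 (-1.62 ± 0.19). The SE of Marcks and Qk was small beside the 0.22 of the median probe set, while that of Tns3 was near it. Tubb4a, a tubulin of myelinating cells, read 3945 and 3808 against 715 and 937 (-2.20 ± 0.55). Upwards, Hadh, an enzyme of fatty acid oxidation, went from 2180 and 2551 to 4288 and 4527 (0.89 ± 0.17). Dynll2, a dynein light chain, went from 3707 and 3430 to 5119 and 6051 (0.64 ± 0.17, adjusted p = 0.0139). The Dynll2 call ended without any 1 array but TSA replicate 1 (highest adjusted p = 0.141), and that of Tubb4a without any but TSA replicate 2 (highest 0.0698).

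Transcripts of the enzymes that TSA inhibits changed too. Of 11 zinc-dependent deacetylases, all tested, 3 rose and 1 fell (median 0.02). Hdac11, the single class IV enzyme, rose from 306 and 327 to 840 and 895 (1.37 ± 0.15, adjusted p = 4.3e-05). Hdac1, a class I enzyme of the corepressor complexes, rose from 1853 and 1709 to 3409 and 3164 (0.87 ± 0.14), and Hdac6, the cytoplasmic tubulin deacetylase, from 301 and 302 to 765 and 682 (1.18 ± 0.21). Hdac9, a class IIa enzyme, fell from 193 and 205 to 92.7 and 88.8 (-0.91 ± 0.30, adjusted p = 0.0373). Hdac2, the close relative of Hdac1, read 2887 and 2676 against 2383 and 2058 and did not pass (-0.32 ± 0.13, adjusted p = 0.0783). Of the 7 sirtuins, Sirt7 rose (0.73 ± 0.21) and Sirt1 fell (-0.58 ± 0.19). The calls of Hdac9 and Sirt1 ended without any 1 of the 4 arrays (highest adjusted p = 0.16 for Hdac9), and that of Sirt7 without any but control replicate 2 (highest 0.15).

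Among genes of the opposing enzymes and of the proteins that bind acetyl-lysine, falls outnumbered rises. Of 15 tested acetyltransferases and coactivators, 8 fell and 1 rose (median -0.43, against 0.02 over all tested genes). Ep300 fell from 1036 and 965 to 488 and 438 (-1.06 ± 0.22), and Crebbp, its paralogue CBP, from 1078 and 938 to 420 and 352 (-1.32 ± 0.27). Kat2b, which codes for PCAF, fell from 456 and 503 to 129 and 117 (-1.73 ± 0.32), and Kat6b by 1.27 on the log2 scale (SE 0.18). The exception was Hat1, which acetylates newly made histone H4 before its deposition and rose from 864 and 635 to 1499 and 1362 (0.92 ± 0.26), a call that ended without any 1 array but control replicate 1 (highest adjusted p = 0.169). Of 28 acetyl-lysine readers 10 fell, 0 rose and 18 did not pass (median -0.39). Among these were Smarca4, the BRG1 ATPase of SWI/SNF complexes (2141 and 1802 against 812 and 767, -1.28 ± 0.19), and Pbrm1, a bromodomain subunit of the same family of complexes (1258 and 1191 against 537 and 493, -1.20 ± 0.22). Without 1 array, 5 of the acetyltransferases and 4 to 8 of the readers fell.

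Corepressor subunits and histone methylation enzymes moved both ways. Of 32 corepressor subunits 6 fell and 3 rose (median -0.19), so that 28.1% were called, near the 26.3% of all tested genes. Chd3, an ATPase of the NuRD complex, fell from 530 and 506 to 176 and 177 (-1.40 ± 0.20), whereas Sin3a, the scaffold of the SIN3 complex, rose from 377 and 317 to 640 and 621 (0.81 ± 0.15). Of 47 histone methyltransferases and demethylases 13 fell (27.7%, against 11.8% of all genes) and 7 rose (14.9%, near the 14.5% of all genes), with a median of -0.35. Kmt5b, which di- and trimethylates lysine 20 of histone H4, fell from 761 and 739 to 90.9 and 85 (-2.70 ± 0.20, adjusted p = 2.47e-06). Setd1b, a methyltransferase of histone H3 lysine 4, fell from 632 and 464 to 136 and 135 (-1.78 ± 0.29), and Setd7 from 1153 and 1142 to 470 and 408 (-1.33 ± 0.20). Eed, a core subunit of Polycomb complex 2, rose from 608 and 586 to 931 and 878 (0.57 ± 0.11). Without 1 array, 6 to 10 of the methylation enzymes fell and 2 or 3 rose, and 2 to 4 of the corepressor subunits fell.

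Of 10 tested linker and variant histones, 4 rose and 1 fell (median 0.48). The rises were the linker histones H1f10 and H1f2 and the variant core histones H3f3b (1.01 ± 0.33, adjusted p = 0.0375) and H2aj (0.60 ± 0.20, adjusted p = 0.0424). The H3f3b probe set was dim, with means of 59.3 in the controls and 159 with TSA. The other tested H2aj probe sets did not pass, at 0.07 and 0.35 (adjusted p of 0.845 and 0.162). H1f10 rose from 1548 and 1288 to 3386 and 3646 (1.30 ± 0.26), and H1f2 from 1813 and 2992 to 5052 and 5605 (1.18 ± 0.39, adjusted p = 0.0403; on its other probe set 1.90 ± 0.40, adjusted p = 0.00324). Macroh2a2, which codes for the variant macroH2A2 of silent chromatin, fell from 645 and 535 to 35.2 and 42.2 (-3.13 ± 0.23, adjusted p = 2.47e-06). Without 1 array, 1 or 2 of the list rose. The H1f2 call ended without any 1 array but control replicate 2 (highest adjusted p = 0.299).

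Genes of the general transcription machinery rose more often than they fell, and zinc finger genes fell more often than they rose. Of 52 tested genes of Mediator, polymerase II and elongation factors, 10 rose (19.2%, against 14.5% of all genes) and 2 fell (3.85%, against 11.8%). The median was 0.20, and the share of rises was not far from that of all genes. Polr2b, the second largest polymerase II subunit, rose from 1546 and 1514 to 3134 and 3096 (1.01 ± 0.12, adjusted p = 6.36e-05), and Polr2e from 687 and 712 to 1413 and 1543 (1.04 ± 0.19). Med12, of the Mediator kinase module, fell from 258 and 222 to 166 and 119 (-0.65 ± 0.18), and this call ended without any 1 array but TSA replicate 1 (highest adjusted p = 0.223). Without 1 array the list had 4 or 5 rises and at most 1 fall. Of 247 tested Zfp genes, 51 fell (20.6%) and 12 rose (4.86%), with a median of -0.16. Zfp362 fell from 1458 and 1362 to 473 and 385 (-1.65 ± 0.18), and Zfp277 rose from 555 and 537 to 1285 and 1232 (1.16 ± 0.16). Without 1 array 22 to 36 Zfp genes fell and 6 or 7 rose. By contrast, of 41 tested ribosomal protein genes none passed in the limma fit (median 0.03, from -0.19 to 0.49), while 4 rose in a fit of the 6 h arrays alone. That fit called 4889 of the 19498 probe sets upward.

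**Figure D4:**
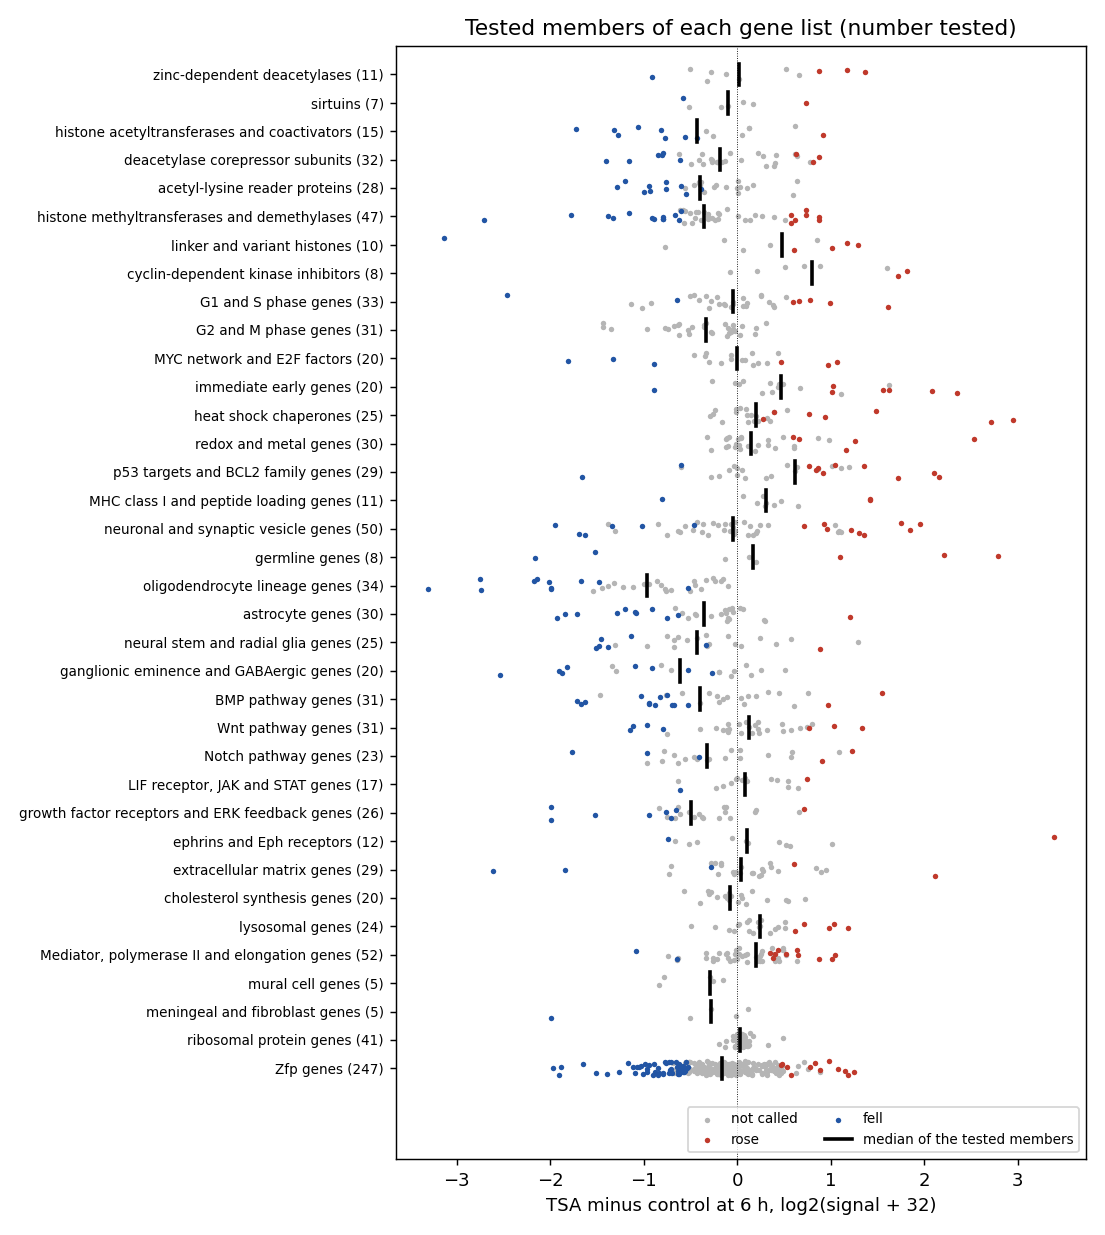
TSA minus control at 6 h (log2) of each tested member, 1 point a gene, for the 36 gene lists with 5 or more tested members, the number of which stands in parentheses. Red points rose, blue points fell, grey points did not pass, and black bars are medians. The oligodendrocyte lineage list has the lowest median (-0.97) and the cyclin-dependent kinase inhibitors the highest (0.80).

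The cyclin-dependent kinase inhibitors Cdkn2b and Cdkn1a, which code for p15 and p21, were the 2 of 8 that rose, and 0 fell (median 0.80). Cdkn2b went from 106 and 154 to 463 and 611 (1.82 ± 0.32, adjusted p = 0.00108), and Cdkn1a from 312 and 832 to 1555 and 1997 (1.72 ± 0.50, adjusted p = 0.0229). The 2 controls of Cdkn1a differed from each other more than the 2 TSA arrays did, and the call ended without any 1 array but control replicate 2 (highest adjusted p = 0.266). Ccnd1, which codes for cyclin D1, fell from 967 and 726 to 170 and 91.8 (-2.46 ± 0.47, adjusted p = 0.00166). Of the other 32 G1 and S phase genes 5 rose and 1, Cdk4, fell, so that 15.2% of the 33 rose, near the background of 14.5%. Gmnn, which codes for the replication licensing inhibitor geminin, rose from 307 and 160 to 811 and 692 (1.61 ± 0.42), a call that ended without any 1 array but control replicate 1 (highest adjusted p = 0.138). Without 1 array at most 3 of the G1 and S phase genes rose, and 1 or 2 fell.

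Of the MYC and E2F list (20 tested), the 3 MYC family members Myc, Mycn and Mycl fell and 3 genes rose (median -0.01). These are 15% fallen and 15% risen, near the 11.8% and 14.5% of all genes. Myc, the proliferation factor, fell from 536 and 537 to 159 and 105 (-1.81 ± 0.33), Mycn from 502 and 541 to 215 and 164 (-1.33 ± 0.35) and Mycl from 586 and 736 to 358 and 323 (-0.89 ± 0.20). Mxd1, an antagonist of MYC, rose from 293 on both controls to 597 and 705 (1.07 ± 0.23). The call of Mycn ended without any 1 array but TSA replicate 1 (highest adjusted p = 0.116), that of Mycl without control replicate 2 or TSA replicate 2 (highest 0.0726) and that of Mxd1 without TSA replicate 2 (0.0555). None of 31 G2 and M phase genes passed in the limma fit at 6 h (median -0.33), while 3 fell in a fit of the 6 h arrays alone and 3 with the replicate number as a block. These fits called 4313 and 3814 of the 19498 probe sets downward. In a fit of the 6 h arrays alone with that block, chosen after seeing the data, 18 fell and 0 rose, where 12505 of all probe sets passed. Mki67, the proliferation marker, read 550 and 227 in the controls and 196 and 58.8 with TSA (-1.43 ± 0.77, adjusted p = 0.205). Cdc20, an activator of the anaphase-promoting complex, read 954 and 686 against 373 and 236 (-1.35 ± 0.73, adjusted p = 0.208). The summed signals of the 34 genes on the array were 13808 and 8573 in the controls and 9970 and 6749 with TSA, so replicate 2 was lower than replicate 1 in both groups.

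Of 25 heat shock chaperones 7 rose and 0 fell (median 0.20). The inducible Hsp70 genes led these: Hspa1b went from 173 and 175 to 1321 and 1829 (2.95 ± 0.22, adjusted p = 2.47e-06) and Hspa1a from 36.5 and 35.9 to 337 and 516 (2.72 ± 0.23). As near-identical copies, they may share probes and are not independent. Hspa1a, with a control mean of 36.2, passed the filter only through a group other than the 6 h controls. The share of rises among the chaperones is therefore partly fixed by the filter. Hspa2, a further Hsp70 gene, went from 104 and 239 to 388 and 654 (1.48 ± 0.35), without control replicate 1 or TSA replicate 2 no longer called (highest adjusted p = 0.114). Of 30 redox and metal genes 5 rose (16.7%, near the 14.5% of all genes) and 0 fell (median 0.15). Among the rises, Gstt3 had means of 5.51 in the controls and 52.5 with TSA, and passed the filter only through a group outside this comparison. Txnip, the inhibitor of thioredoxin, went from 434 and 809 to 3151 and 4120 (2.54 ± 0.38). Sod2, the mitochondrial superoxide dismutase, went from 1508 and 1429 to 2290 and 2183 (0.60 ± 0.16), a call that ended without any 1 of the 4 arrays (highest adjusted p = 0.0837). Without 1 array, 2 to 5 of the chaperones and 1 to 3 of the redox genes rose.

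Apoptosis genes changed in both directions. Of 29 p53 targets and BCL2 family genes 9 rose (31%, against 14.5% of all genes) and 2 fell (6.9%, against 11.8%), with a median of 0.62. Pmaip1, which codes for the BH3-only protein Noxa, went from 37.7 and 58.4 to 286 and 364 (2.16 ± 0.30), and Bid, a further BH3-only gene, from 63.1 and 64.6 to 340 and 423 (2.10 ± 0.28). With control means of 48 and 63.8, Pmaip1 and Bid passed the filter only through a group other than the 6 h controls. The shares of rises and falls in this list are therefore partly fixed by the filter. The falls were Bak1, a pore-forming killer protein (347 and 314 against 83.4 and 81.9, -1.66 ± 0.17), and Bcl2l1, which codes for the survival protein BCL-XL (624 and 623 against 422 and 381, -0.60 ± 0.14). The Bcl2l1 call ended without any 1 array but TSA replicate 1 (highest adjusted p = 0.0819). Of 20 immediate early genes 6 rose and 1 fell (median 0.47). Ier3, Klf4 and Egr2 had control means of 8.08, 14.8 and 19 and passed the filter only through a group other than the 6 h controls. The share of rises is therefore partly fixed by the filter. Klf4, a zinc finger factor, went from 15.1 and 14.5 to 115 and 111 (1.63 ± 0.27), Ier2 from 195 and 164 to 626 and 561 (1.57 ± 0.38) and Egr2 from 15.8 and 22.2 to 128 and 259 (2.08 ± 0.61). The call of Ier2 ended without control replicate 2 or TSA replicate 1 (highest adjusted p = 0.0647) and that of Egr2 without any 1 array but TSA replicate 1 (highest 0.191). Without 1 array, 6 to 8 of the apoptosis genes and 3 or 4 of the immediate early genes rose.

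Lysosomal genes showed 5 rises and 0 falls among 24 tested (median 0.24), and the count of 5 held without each of the 4 arrays. Gla, alpha-galactosidase A, rose from 63.9 and 75.4 to 183 and 216 (1.18 ± 0.16), and Grn, which codes for progranulin, from 1180 and 1406 to 2475 and 2891 (1.04 ± 0.20). With a control mean of 69.6, Gla passed the filter only through a group other than the 6 h controls. The class I histocompatibility genes H2-K1 (228 and 283 against 676 and 804, 1.43 ± 0.26) and H2-D1 (272 and 347 against 813 and 945, 1.42 ± 0.26) rose by near the same amount, and their sequences are similar enough that probes may be shared. Of the 11 tested genes of their list 1 fell. Of 35 germline genes only 8 were bright enough to be tested, of which Tcfl5, Brdt and Tex15 rose and 2 fell. Tcfl5 and Tex15 had control means of 21 and 10.5 and passed the filter only through a group other than the 6 h controls. The share of rises in this list is therefore partly fixed by the filter. Tex15, a meiotic gene, went from 8.21 and 12.8 to 161 and 168 (2.21 ± 0.38). Of 20 cholesterol synthesis genes none passed in the limma fit (median -0.08), and 2 rose and 2 fell in a fit of the 6 h arrays alone. That fit called 4889 of the 19498 probe sets upward and 4313 downward.

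Genes of the oligodendrocyte lineage were lower with TSA throughout. Of 34 tested, 11 fell and 0 rose, all 34 had a difference below 0, from -3.31 to -0.09, and the median was -0.97 against 0.02 over all genes. Besides Nkx2-2, Omg and Gpr17, the falls included Pdgfra, the PDGF receptor of oligodendrocyte precursors, from 2627 and 2764 to 832 and 515 (-1.99 ± 0.23, adjusted p = 5.33e-05). Gal3st1, a sulfotransferase of myelin lipid synthesis, fell from 654 and 629 to 137 and 107 (-2.14 ± 0.35). Sox10, the glial lineage factor, read 2854 and 2908 against 1175 and 869 (-1.48 ± 0.51, adjusted p = 0.0486), a call that ended without any 1 of the 4 arrays (highest adjusted p = 0.247). Both other Sox10 probe sets fell, by -1.66 ± 0.31 (adjusted p = 0.00166) and -1.93 ± 0.44 (adjusted p = 0.00585). Without 1 array the list had 5 falls (control replicate 1), 6 (control replicate 2), 8 (TSA replicate 1) or 5 (TSA replicate 2), and 0 rises each time.

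Astrocyte and stem cell genes also went down more often than up. Of 30 astrocyte genes 10 fell and 1, Cd44, rose (median -0.36). S100b, a calcium-binding protein of glia, fell from 1086 and 1166 to 201 and 366 (-1.93 ± 0.44, without TSA replicate 1 an adjusted p of 0.0697), and Nfix, a factor of glial development, from 1942 and 2314 to 889 and 916 (-1.20 ± 0.26). Cd44, the hyaluronan receptor, rose from 266 and 226 to 586 and 627 (1.20 ± 0.23). Gfap, the astrocyte filament protein, was too variable for a call, at 280 and 901 in the controls and 188 and 552 with TSA (-0.59 ± 1.16, adjusted p = 0.775). Of 25 neural stem and radial glia genes 6 fell and 1, Slit2, rose (median -0.43). Rfx4 fell from 1066 and 1083 to 423 and 315 (-1.48 ± 0.18) and Pax6, the patterning factor, from 244 and 283 to 112 and 93.7 (-1.13 ± 0.19). Sox2, the factor of neural stem cells, fell only from 6307 and 6195 to 5203 and 4725 (-0.33 ± 0.07). The Slit2 call ended without any 1 of the 4 arrays (highest adjusted p = 0.203). Without 1 array, 4 or 5 genes of each of these lists fell.

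Of 20 ganglionic eminence and GABAergic genes 8 fell and 0 rose (median -0.62). Gsx1, a patterning factor of this region, fell from 281 and 324 to 64.9 and 53.9 (-1.87 ± 0.43, without TSA replicate 2 an adjusted p of 0.0534). Without 1 array 1 (control replicate 1), 5 (control replicate 2), 4 (TSA replicate 1) or 0 (TSA replicate 2) of the 20 genes fell. Neuronal and synaptic vesicle genes split, with 9 rises (18%) and 6 falls (12%) of 50 tested (median -0.04), near the 14.5% and 11.8% of all genes. Dcx, the microtubule protein of immature neurons, fell from 1304 and 977 to 340 and 212 (-1.94 ± 0.39). Scn3b, a sodium channel subunit, rose from 73.4 and 90 to 386 and 434 (1.96 ± 0.19, adjusted p = 1.78e-05). Unc13a, a priming factor of synaptic vesicles, rose from 56.1 and 58.2 to 345 and 240 (1.85 ± 0.35), and Nefm, the medium neurofilament, from 181 and 128 to 661 and 528 (1.76 ± 0.35). Without 1 array 4 to 6 of the neuronal genes rose and 3 to 5 fell.

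Of 31 tested genes of the BMP pathway, 12 fell and 2 rose (median -0.40). Of the ligands, Bmp4 fell from 1201 and 783 to 350 and 228 (-1.67 ± 0.52), and Bmp6 rose from 6.86 and 17.3 to 76.6 and 118.8 (1.55 ± 0.41). The group means of Bmp6, 12.1 and 97.7, were both under 100, and it passed the filter only through a group outside this comparison. Of the receptors, Bmpr1a fell from 2495 and 2237 to 1452 and 1338 (-0.75 ± 0.13) and Bmpr1b from 928 and 704 to 255 and 226 (-1.63 ± 0.29), while the decoy receptor Bambi rose from 52.7 and 47.8 to 128 and 131 (0.97 ± 0.32). Of the targets, Id2 fell from 3673 and 3214 to 2389 and 1541 (-0.83 ± 0.28). Id1 (1213 and 826 against 820 and 407, -0.76 ± 0.45) and the inhibitory Smad7 (280 and 452 against 94.5 and 123, -1.47 ± 0.56) did not pass on their brightest probe set, with adjusted p of 0.254 and 0.0725. A second Smad7 probe set fell, from a mean of 277 to 105 (-1.15 ± 0.24, adjusted p = 0.0029). The calls of Bmp4 and Bambi ended without any 1 of the 4 arrays (highest adjusted p = 0.201 and 0.164), that of Id2 without any but TSA replicate 1 (highest 0.38) and that of Bmp6 without control replicate 1 or TSA replicate 2 (highest 0.128). Without 1 array the list had 5 to 7 falls and at most 1 rise.

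Of 26 genes of growth factor receptors and ERK feedback 7 fell and 1 rose (median -0.49). Pdgfa, the ligand of Pdgfra, fell from 712 and 467 to 124 and 120 (-1.99 ± 0.42), so that the ligand and the receptor were both lower. Without 1 array 3 to 5 genes of this list fell. Of 31 Wnt genes 4 fell (12.9%) and 3 rose (9.68%), against 11.8% and 14.5% of all genes (median 0.12). Wnt7a (547 and 662 against 245 and 264, -1.15 ± 0.24), Wnt7b (693 and 865 against 329 and 353, -1.11 ± 0.30) and Wnt5a (239 and 372 against 132 and 144, -0.96 ± 0.29) were the ligands that fell. The receptor gene Fzd7 rose from 131 and 135 to 314 and 296 (1.03 ± 0.21). The calls of Wnt7b and Wnt5a ended without any 1 array but control replicate 1 (highest adjusted p = 0.113 and 0.23), and other probe sets of Wnt5a lowered its mean fall to -0.63 (adjusted p = 0.199).

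In the Notch list (23 tested) 3 fell (13%) and 2 rose (8.7%), against 11.8% and 14.5% of all genes (median -0.33). Dll3, an inhibitory ligand, fell from 1081 and 1010 to 389 and 207 (-1.76 ± 0.48), and Numb, a Notch antagonist, rose from 272 and 286 to 588 and 517 (0.91 ± 0.17). Of 17 genes of LIF receptor, JAK and STAT signalling 1 rose and 1 fell (median 0.08). Stat3, the transducer of gliogenic cytokines, rose from 711 and 653 to 1181 and 1151 (0.75 ± 0.18), and Jak2, a kinase upstream of it, fell from 825 and 747 to 535 and 472 (-0.61 ± 0.17). Of 29 extracellular matrix genes 2 rose and 3 fell (median 0.04), with Nid2, a basement membrane protein, at 11.5 and 20.6 against 165 and 187 (2.12 ± 0.33). The call of Dll3 and that of Jak2 ended without any 1 array but TSA replicate 1 (highest adjusted p = 0.167 and 0.13), and that of Stat3 without control replicate 2 (0.0622).

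Separate arrays show what became of the early changes after 24 h of TSA, where 35.2% of the tested probe sets were called (16.6% up, 18.7% down). Of the 2344 probe sets that had risen at 6 h, 1016 (43.3%) had also risen at 24 h and 114 were called lower. Of the 2025 that had fallen, 1183 (58.4%) had also fallen and 46 were called higher. Of the 6872 calls at 24 h, 32% had been called in the same direction at 6 h. The difference between the effects at both times passed an adjusted p of 0.05 for 1908 probe sets (9.79%), upward for 4.29% and downward for 5.5%. Among the early rises 723 passed this test, 708 of these with a smaller or opposite effect at 24 h, and among the early falls 426 and 422. As the calls were made on the 6 h values that also enter the difference, a shift back towards 0 is partly fixed by the choice. With each array scaled to the same median, the median of all differences between the times was -0.12 and 26.3% of the calls were upward, against 43.8% in the fit as used. Leaving out 1 of the 4 arrays of 6 h left 412 to 628 calls.

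**Figure D5:**
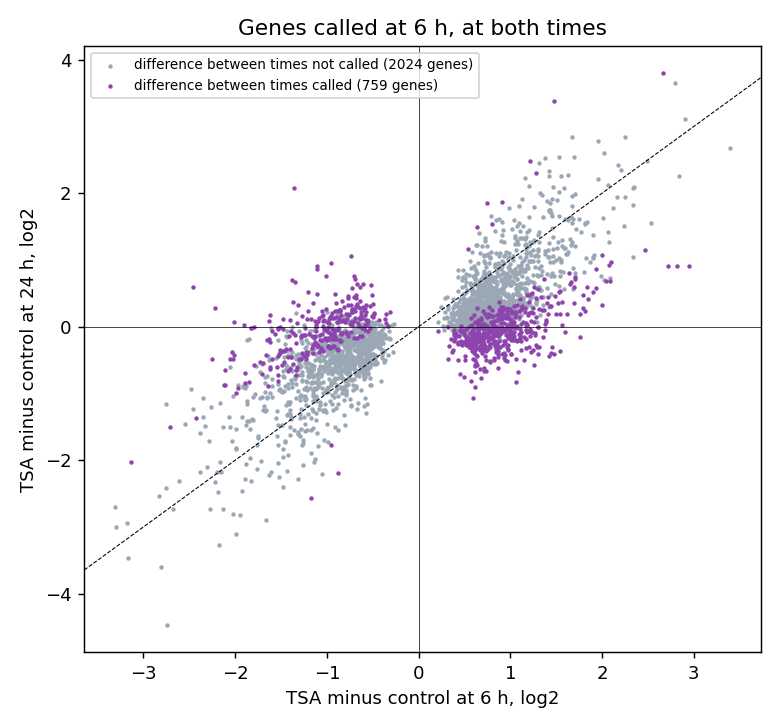
TSA minus control at 6 h (horizontal axis) and at 24 h (vertical axis), both log2, for the 2783 genes called at 6 h. The dashed line marks equal effects, and the 759 genes for which the difference between the times passed the test are purple. Most purple points lie between the dashed line and the horizontal axis or across it.

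Named genes differed in what was left of their change at 24 h. Tesc was higher at 24 h than at 6 h (3.79 against 2.66, adjusted p of the difference = 0.0283). The 24 h differences of Tcfl5 (3.64), Zcchc12 (3.11), Efna3 (2.68), Prkcq (-2.94), Nkx2-2 (-2.70) and Gpr17 (-4.46) did not pass the test of the difference from 6 h. Hspa1b and Hspa1a had dropped from 2.95 and 2.72 at 6 h to 0.91 at 24 h, with an adjusted p of the difference of 0.000737 and 0.00173. For Polr2b, Polr2e, Ier2, Bmpr1a, Rfx4 and Sox2 the effect at 24 h lay between -0.0019 and 0.12, and for all 6 the difference from 6 h passed the test. The sign turned for Ccnd1 (0.60 at 24 h, adjusted p of the difference = 0.00447), Mxd1 (-0.82), Wnt7b (0.91) and Wnt5a (0.96), and Mxd1, Wnt7b and Wnt5a were themselves called at 24 h in the new direction.

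TSA and BMP2 were both applied for 6 h, and the comparison with TSA shares its control arrays, so the values are given side by side. TSA and BMP2 arrays differed directly in 4716 probe sets (24.2%), 2496 higher and 2220 lower with TSA. Smad7 stood at -1.47 with TSA and at 2.11 with BMP2 against the controls, and the direct difference was -3.58 (adjusted p = 0.000342). Id1 stood at -0.76 and 1.56 (direct difference -2.31, adjusted p = 0.00158) and Id2 at -0.83 and 0.85 (-1.68, adjusted p = 0.00062). Bmpr1a stood at -0.75 and 0.59 (-1.34, adjusted p = 7.8e-06). In other genes the 2 treatments went the same way: Klf4 at 1.63 and 1.22, Fzd7 at 1.03 and 0.93, Bambi at 0.97 and 1.33, and Bmp4 at -1.67 and -2.88, for which the direct differences did not pass (adjusted p of 0.313, 0.795, 0.487 and 0.104). The heat shock gene Hspa1b, at 2.95 with TSA, was at 0.00 with BMP2, and Macroh2a2 was at -3.13 and -0.16.

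By the criteria in the methods of the study (more than 2-fold between the means, which had to lie over 100 apart, and a confidence of 90%, here an unadjusted limma p under 0.1), 1868 of all 45101 probe sets passed, 849 up (1.88%) and 1019 down (2.26%), for 1328 genes.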

How the data were processed

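RNA was hybridised to Affymetrix Mouse Genome 430 2.0 arrays, 1 colour and 1 sample each. The deposited table, made by the authors, gives a linear intensity per probe set and array. The submitters' notes name MAS5 (version not given), while the methods of the study name dChip with quantile normalization, and which of these made the table was not tested. Deposited array medians were 35.4 to 41.6. The table holds no detection calls, and the number of arrays limits the precision.

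Intensities were quantile-normalized over the 18 arrays with limma 3.58.1 in R 4.3.3, 32 was added and the log2 taken. Those averaging 100 or more in 1 of 6 groups entered 1 limma fit (eBayes with trend), with Benjamini-Hochberg adjustment over all of them and a threshold of 0.05. Of the tested probe sets 59 were array controls, 2 of them called. The steps were tested on simulated data. Groups and replicate numbers come from the sample titles. Symbols come from the platform annotation, updated through gene identifiers (34754 of 34958 single-gene probe sets), and 932 probe sets with several genes and 9211 with none were not named. Named genes are the 15 largest rises and falls by fold and the 5 by signal difference, unnamed clones passed over, up to 5 members of each gene list with the smallest adjusted p and up to 3 against their list, and genes the study names. The largest rises and falls had to be called and to have both TSA arrays beyond both control arrays. The members and lists were chosen with earlier results of these data known. Alternatives were other scalings, pseudocounts, filters, sets of arrays and a replicate block. At 6 h, deviations of TSA and control arrays with equal numbers correlated at 0.56, but the labels do not say what the numbers mark, so the arrays were not paired. Functional annotation, RT-PCR and protein data were not analysed here.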

Additional observations from a re-analysis of the deposited data

Results flagged for a closer look

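Of 120 of the genes named in the report, 40 had a TSA effect at 24 h that differed from that at 6 h by the test of the difference itself (limma, adjusted p under 0.05). The other named genes, such as H3f3b, H2aj, Cdk4, Brdt and Epha5, were not followed here. Each value in parentheses is the log2 effect at 24 h minus that at 6 h. Among genes that had risen at 6 h, those with the largest differences were Hspa1b (-2.03), Reep6 (-1.91), Mxd1 (-1.89), Hspa1a (-1.81), Nefm (-1.56), Ier2 (-1.54), Unc13a (-1.43) and Ifnz (-1.33). The other risen genes were Bid (-1.13), Sirt7 (-1.10), Dynll2 (-1.08), Polr2e (-1.04), Polr2b (-1.01), Hdac1 (-0.75), Gla (-0.71), Hdac11 (-0.65), Sod2 (-0.64) and Eed (-0.45). The rise of Tesc was larger at 24 h (1.13). Among genes that had fallen, those with the largest differences were Ccnd1 (3.06), Wnt7b (2.03), Wnt5a (1.92), Rfx4 (1.60), Wnt7a (1.50), Bmpr1b (1.45), Zfp362 (1.45), Mycn (1.38), Bak1 (1.24), Kmt5b (1.20), Macroh2a2 (1.11), Zfp532 (1.05) and Pdgfra (1.00). The other fallen genes were Tns3 (0.98), Kat6b (0.88), Bmpr1a (0.79), Jak2 (0.74), Qk (0.74), Bcl2l1 (0.57), Marcks (0.54) and Sox2 (0.34). In 39 of the 40 the effect at 24 h was smaller or opposite, and the genes had been called on the 6 h values that enter the difference. With 2 arrays a group at 6 h, no single array there could be tested for standing apart.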

How the results depend on the processing

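The number of calls moved more with the estimate of the spread than with the scaling, filter or pseudocount. Against 4369 in the fit as used, the count was 3587 to 4406 with other scalings, pseudocounts and filters or no trend, 9202 with only the 6 h arrays, 8665 with only the 4 arrays compared and 5230 without the 24 h controls 5 and 6 and both BMP2 24 h arrays. With the replicate number as a block it was 8000, of which 4367 were among the 4369, and 12505 with only the 6 h arrays and the block, an alternative chosen after seeing the data. Without 1 of the 4 arrays it was 1898 to 2343. For TSA against BMP2 (4716) it was 9303 with only the 6 h arrays, 8226 with the block and 2307 to 2725 without 1 array. For the difference between the times (1908) it was 1256 without a filter, 5030 with the block and 412 to 2132 without 1 array. The criteria of the methods gave 1740 to 2038 without 1 array and 1648 to 1930 otherwise, against 1868. Of the same 120 genes, Gfap changed sign, to 0.20 without control replicate 2 and 0.12 without TSA replicate 1, with -1.38 the lowest without 1 array. Sox10 lost its call with the block (adjusted p = 0.0557), while Smad7, Hdac2 and Mki67 gained one (0.00439, 0.0113 and 0.045), and the block changed no other call of these 120 genes. Hdac9 and Sirt1 lost theirs without further normalization and with median scaling. Signals under 100 have little room to fall.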
